A study of Mus musculus with 2 samples.

Results

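Spliced transcript models that belonged to an annotated gene but used at least 1 splice site absent from the annotation were described in mouse heart. They were chosen by their class and their read count in replicate 2, as models of class NNC (a spliced model with a site outside the catalog of known ones) with 4 or more long reads, spike-ins left out. The choice gave 694 of the 82087 models of replicate 2, in 542 genes. Since replicate 2 reads made the choice, replicate 2 levels are a description, and replicate 1 gives the values that the choice did not use. Both libraries came from heart of 2-month-old female B6CASTF1/J mice, an F1 hybrid strain, with no treatment and no genetic alteration named, and 2 µg of total RNA went into each. The labels gave 1 group of 2 biological replicates, so no condition is compared. They numbered the animals 3 and 4 at the sample level, but the library text gave animal 3 both times and the donor identifier was shared. It is therefore not known if differences between the libraries reflect animals or handling.

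An intron is cut out between a donor site at its start, which usually reads GT, and an acceptor site at its end, which usually reads AG. When a pair of acceptors or donors lies a few bases apart, the spliceosome can use either, and in coding sequence a step of a whole codon keeps the reading frame. Heart muscle is known for alternative splicing of sarcomere and calcium handling genes. Some annotated exons have only a few bases, and an alignment of a long read places such an exon only if it finds these bases between introns.

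Replicate 2 held 745375 reads and replicate 1 held 905154 reads on 85327 models, of which 707758 and 859191 fell on annotated genes. All 7 heart muscle markers were read, at 98 (Ryr2) to 24642 reads (Myh6) in replicate 2 and 108 to 26157 in replicate 1. The skeletal muscle markers Myh4 and Tnnt3 had 0 reads in both, and Ckm, which heart also expresses, had 5219 and 6305. Red blood cell RNA was also present, with 11132 and 15180 reads of Hba-a1. All intervals printed below are Wilson 95% intervals or limits for a count of 0. They hold for counting error alone, because models, introns and sites can share a gene. Also, 1 molecule without an identifier can give several reads. Fewer cells of a type and less RNA per cell cannot be told apart in tissue RNA.

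The models took 10069 reads in replicate 2 and 10381 in replicate 1, which was 1.58% and 1.35% of the spliced reads of annotated genes. All but 17 had 1 or 2 new sites: 556 had 1, 121 had 2, and the highest number was 6. Of the 694 models, 677 belonged to protein-coding genes and 7 to lincRNA genes. A model had a median of 10 exons, against 12 in models that join known sites in a new way (NIC), 7 in incomplete matches (ISM) and 8 in annotated models (Known), each spliced and with 4 or more reads. The median model had 6 reads in each library, 201 models had 10 or more in replicate 2, and 12 had 100 or more.

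Sequences at the sites show 3 forms that recur below, and the third set is drawn from models of the second form. The first set shows coding exons whose start is skipped because the new acceptor lies a few bases inside the annotated exon. Each line gives the first 24 bases of the annotated exon on GRCm38, read from GENCODE M21 transcripts, with the skipped bases in capitals. The exons lie at chr4:140966495-140966518 (Sdhb, plus strand), chr9:67033970-67033993 (Tpm1, minus strand), chr6:6110001-6110024 (Slc25a13, minus strand), chr14:54942464-54942487 (Myh6, minus strand) and chr8:68894627-68894650 (Lpl, plus strand). In each line the capitals end in AG, the usual end of an intron.
Sdhb: TTTCAGgcctgtcgaggggcacag
Tpm1: AGgcatgaaagtcattgaaagccg
Slc25a13: CAGaaggcctcgggtgatgctgct
Myh6: GAGgagcaggccaacaccaacctg
Lpl: GAGgagtttaactaccccctagac

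The second set shows very short annotated exons that a new intron runs across. Capitals mark the whole short exon, and 5 bases of each neighbouring exon stand on either side in lower case. The short exons lie at chr5:122500931-122500948 (Atp2a2, minus strand), chrX:73782298-73782309 (Idh3g, minus strand), chr7:4522070-4522082 (Tnni3, minus strand), chr11:75608107-75608114 (Pitpna, plus strand), chr13:58393853-58393868 (Hnrnpk, minus strand) and chr1:182482536-182482547 (Capn2, minus strand).
Atp2a2: caacgAATTGCCGGCTGAAGAAGgaaaa
Idh3g: cctcaCAACAAACAATTcctcc
Tnni3: gatgaGAGCAGCGATGCGgctgg
Pitpna: aaccgTTATTACAaatga
Hnrnpk: cacagGGTGGTTCTGGATATGactat
Capn2: atgagGTTCCAGAGGAGctaac

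The third set shows donors that moved downstream, with the bases between the annotated and the new donor in capitals after the last 10 bases of the exon. All of these introns also run across a short annotated exon, of 12 bases in Idh3g, 19 in Mrpl33, 13 in Tnni3 and 11 in Lmf1. Donors that moved downstream without spanning such an exon are not printed. These windows lie at chrX:73782665-73782684 (Idh3g, minus strand), chr5:31614013-31614036 (Mrpl33, plus strand), chr7:4522295-4522314 (Tnni3, minus strand) and chr17:25585843-25585862 (Lmf1, plus strand). Each new donor, the first 2 lower-case bases after the capitals, reads GT.
Idh3g: catttcctcaGTAAgtacct
Mrpl33: gctgtctcttGTAAGTCGgtctga
Tnni3: tggctgatgaGTATgtgaat
Lmf1: ggcagatctgGTAAgtagag

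Most models recurred. The same chain of introns was read in replicate 1 for 661 of the 694 models, or 95.2% (93.4% to 96.6%). Over all spliced models of annotated genes with 4 or more reads in replicate 2, 98.2% were found in replicate 1, so the share was below that of the whole. This comparison is not matched on read number. By class, 95.7% of 1311 NIC models, 96.1% of 1916 ISM models and 99.4% of 8568 Known models were found. Recovery followed the read number. Of 191 models with exactly 4 reads, 89.5% were found, with a median of 3 reads in replicate 1. With exactly 4 reads, 89.0% of NIC, 88.8% of ISM and 96.0% of Known models were found. Just outside the choice, 73.1% of 379 NNC models with 3 reads were found, with a median of 2 reads. All 201 models with 10 or more reads were found.

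**Figure D1:**
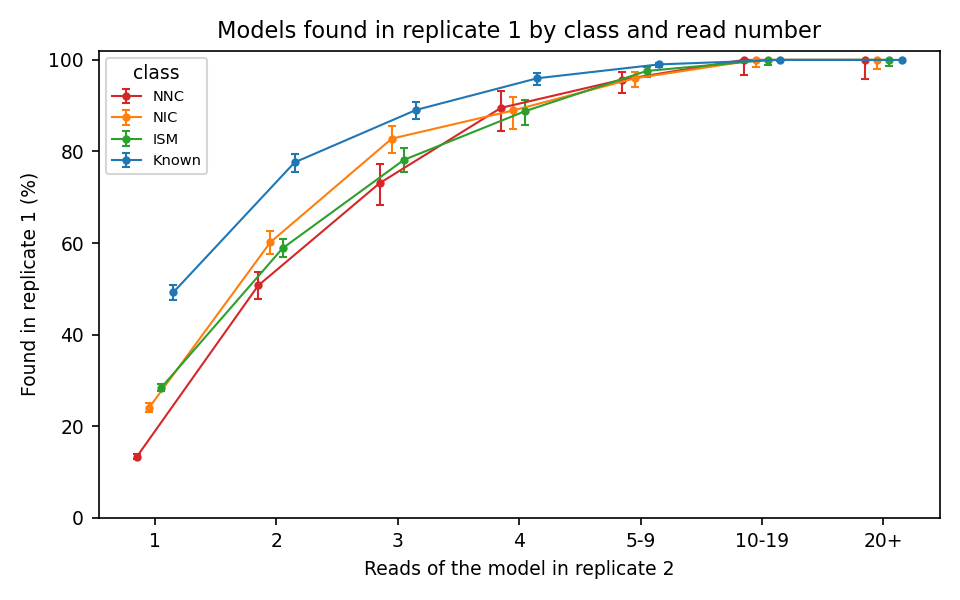
Share of spliced models of replicate 2 whose intron chain was read in replicate 1 (%), by read number in replicate 2 and by class; points are shares and bars are Wilson 95% intervals. NNC models with 1 read were found in 13.4% of cases and those with 4 reads in 89.5%, and all models with 10 or more reads were found in all 4 classes.

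Counted as introns, recovery was higher. Of 776 distinct introns of the models that are absent from the annotation, 758 were read in replicate 1, or 97.7% (96.4% to 98.5%). Among annotated introns with 4 or more reads in replicate 2, 99.4% were read there. Of the 33 models not found, 16 had all their new introns read in replicate 1 within other chains, and none had more than 9 reads in replicate 2. The leading ones were in Vcp, an ATPase that extracts proteins from complexes, with 9 reads in replicate 2 and 0 in replicate 1, in Ndrg2 with 8 and 0, and in Cox5a, a subunit of respiratory complex IV, with 7 and 0.

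**Figure D2:**
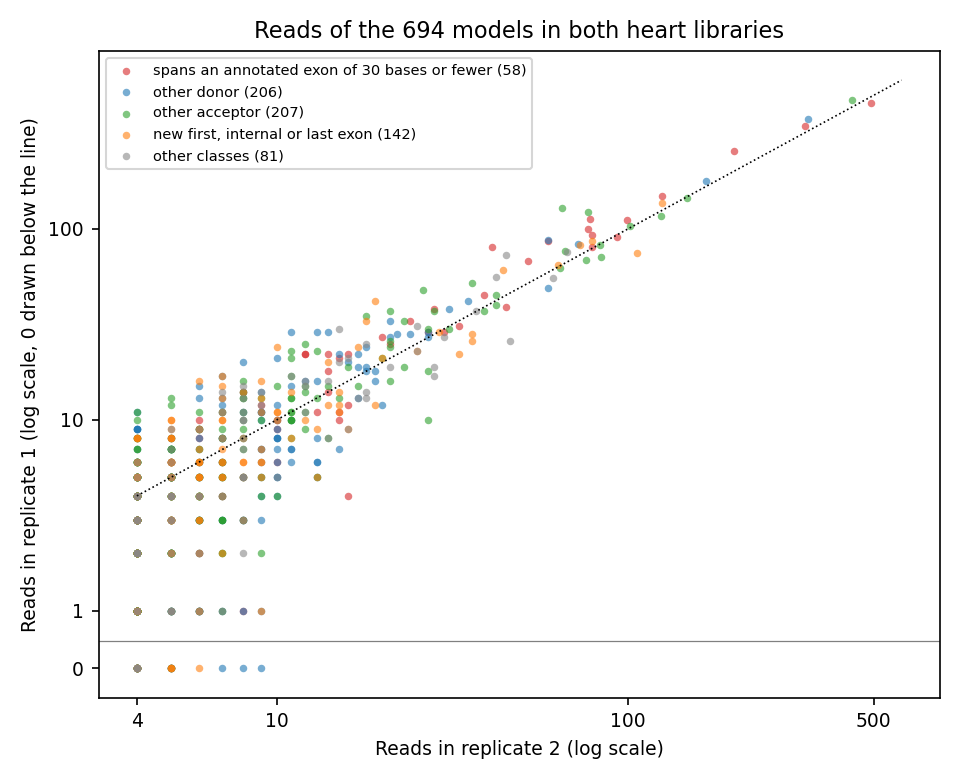
Reads of each of the 694 models in replicate 2 (x axis, log scale, 4 or more by the choice) and replicate 1 (y axis, log scale, 0 drawn below the grey line); the dotted line marks equal reads and colours mark the kind of change. Models with 10 or more reads in replicate 2 all have reads in replicate 1, and the 33 models at 0 have at most 9 in replicate 2.

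The changes fell into a few classes. A different donor was used in 242 models, a different acceptor in 219, a new first exon in 84 and a new internal exon in 47. An intron with both ends new occurred in 30, an intron inside an annotated exon in 29, several changes in 27, a new last exon in 11, and an exon with both edges new in 5. Each class was recovered in replicate 1, with 94.2% of other donors, 97.3% of other acceptors, 92.9% of new first exons, 95.7% of new internal exons and 85.2% of models with several changes. All 29 introns inside an exon and all 11 new last exons were found.

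Taken over all classes, new acceptors lay closer to a known site of their gene than new donors did. The sets differ in mix, since the 84 models with a new first exon add only donors. The 11 with a new last exon add only acceptors. Distances without these classes were not compared. The 374 distinct new acceptors had a median distance of 27.5 bases and 42.2% lay within 10 bases (37.3% to 47.3%). The 463 distinct new donors had a median of 167 bases and 23.8% lay within 10 bases (20.1% to 27.8%). Single distances stood out. There were 55 new acceptors 3 bases downstream, 36 at 2 bases downstream, 21 at 3 bases upstream and 20 at 4 bases downstream. Among donors, 52 lay 4 bases downstream and 12 lay 3 bases upstream.

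**Figure D3:**
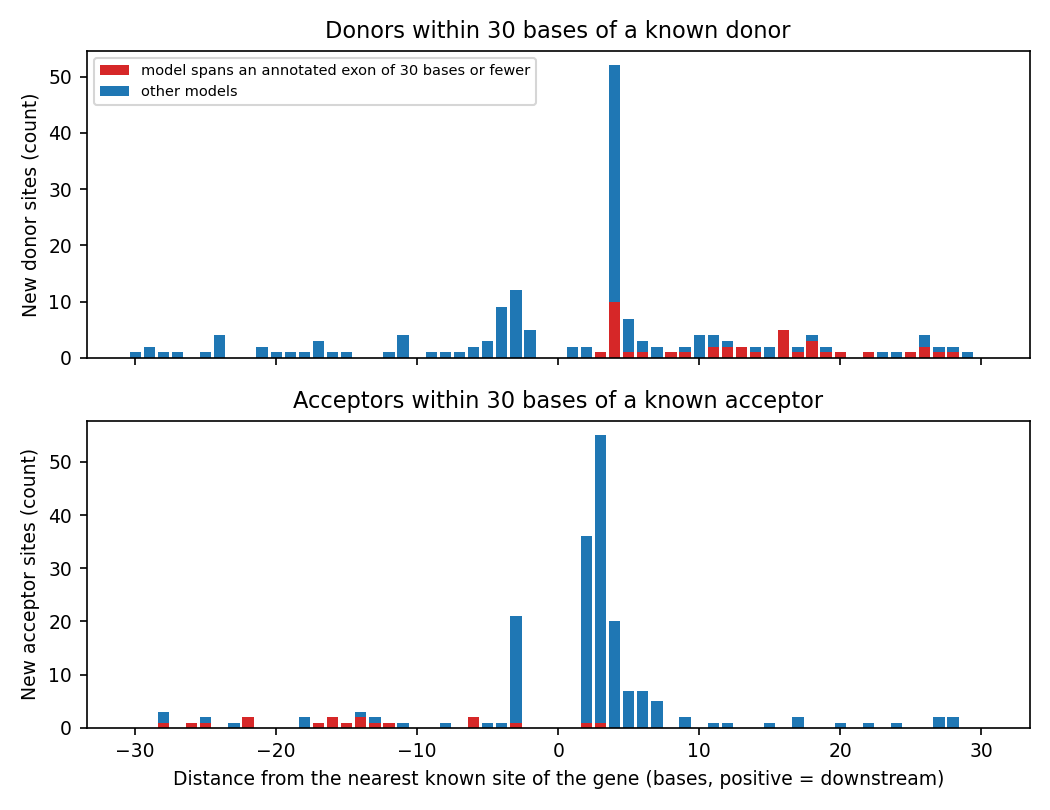
Number of new donor sites (upper panel) and new acceptor sites (lower panel) by distance from the nearest known site of the same kind in the gene, in bases, positive downstream; red marks sites of models whose new intron spans an annotated exon of 30 bases or fewer. Donors peak at 4 bases downstream with 52 sites, 10 of them red, and acceptors at 3 bases downstream with 55 sites.

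Several of these short steps had the same letters at every site that could be read. Without a genome, intron letters are known only where another annotated transcript or a RefSeq promoter window covers them. All letters are those of these references, not of the reads from the F1 hybrid mice. All 55 acceptors at 3 bases downstream skipped a triplet ending in AG, which read CAG in 22, GAG in 15, AAG in 10 and TAG in 8. All 36 at 2 bases downstream skipped AG. At 4 bases downstream the skipped bases varied, and ended in AG in 19 of 20 and in AT in the other, in Slc25a4, the ADP/ATP carrier. Of the 21 acceptors at 3 bases upstream, 5 could be read, and the bases gained were CAG. All 12 donors at 3 bases upstream left out GTG, and all 5 at 2 bases upstream left out GT. Of the 52 donors at 4 bases downstream, 11 could be read, and each of the 11 was GT.

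Across all readable sites, 227 of 235 new acceptors read AG, or 96.6% (93.4% to 98.3%), against 98.1% of 1132 known acceptors of the same genes read in the same way. Among new donors, 155 of 174 read GT, or 89.1% (83.6% to 92.9%), and 18 read GC, or 10.3% (6.64% to 15.8%). Known donors of these genes read GT in 96.0% and GC in 2.47% of 1334 readable sites. The readable sites lie mostly inside annotated exons, and 289 new donors and 139 new acceptors could not be read. Clip4, which encodes a microtubule-binding protein, held the GC donor with most reads, 82 in replicate 2 and 74 in replicate 1, 4 bases upstream of the known donor.

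By position, 265 new donors lay in introns, 66 in coding exon sequence, 37 in 5′ UTR exons and 32 in 3′ UTR exons. New acceptors lay in coding exon sequence in 144 cases, in introns in 122, in 5′ UTR exons in 35 and in 3′ UTR exons in 32. Between coding exons, acceptor steps within 10 bases were a multiple of 3 in 68 of 114 cases, or 59.6% (50.5% to 68.2%). Donor steps within 10 bases were a multiple of 3 in 16 of 66, or 24.2% (15.5% to 35.8%). Donor steps of 11 to 100 bases were so in 30 of 49, or 61.2% (47.2% to 73.6%), and acceptor steps of 11 to 100 bases in 12 of 28, or 42.9% (26.5% to 60.9%).

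How often the new site was used differed widely. Use was taken as the reads of the new intron as a percent of all reads of it and of annotated introns that share its known site. Other new introns at that site were left out, so new introns sharing a site can each reach 100%, as in Tnni3. Reads at a donor or acceptor below mean this total. Over 571 new introns with 20 or more such reads in each library, median use was 6.59% in replicate 2 and 4.17% in replicate 1. Use was 50% or more in both libraries for 72 introns and under 5% in both for 253. The median difference between the libraries was 1.01 percentage points, and use was higher in replicate 2, where the models were chosen, for 369 of 571.

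**Figure D4:**
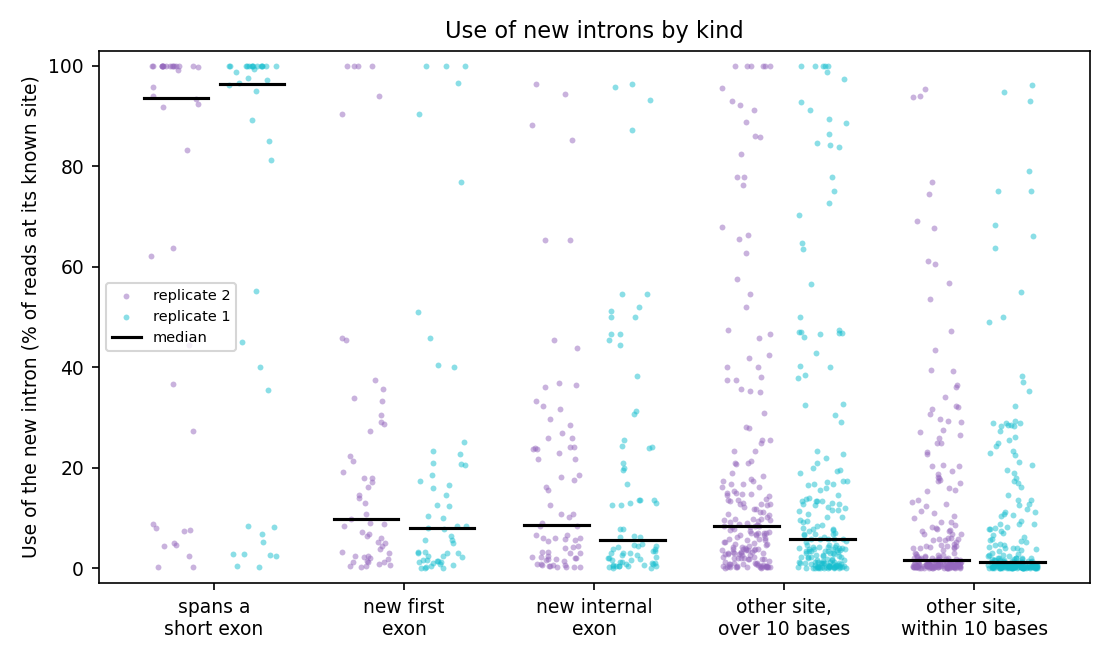
Use of new introns (%) in replicate 2 (purple, left of each pair) and replicate 1 (blue), by kind. Use is the reads of the new intron as a percent of reads of it and of annotated introns sharing its known site. Points are introns with 20 or more such reads in each library and black lines are medians. Introns that span a short exon have medians of 93.6% and 96.4%, and introns with a site within 10 bases of a known site 1.55% and 1.15%; 4 introns that join known sites and 4 of new last exons are not drawn.

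Introns that ran across a very short annotated exon had high use as defined above. Annotated introns that join the short exon enter this use only where reads were placed on that exon. In 58 models of 47 genes a new intron spanned an annotated internal exon of 30 bases or fewer, with a median exon length of 16 bases and a shortest of 3. These models made up 8.36% of the 694 (6.52% to 10.7%) but took 2377 of the reads in replicate 2 and 2625 in replicate 1, which was 23.6% and 25.3% of the reads of all 694. They included 9 of the 20 models with the most replicate 1 reads. Their median share of their gene's reads was 28.9% in replicate 2 and 27.7% in replicate 1, against 6.04% and 3.94% in the other 636 models. The short exon itself had 0 reads in both libraries for 42 of the 58. Among the 48 with a single new site, the neighbouring exon was longer than annotated in 47, by a median of 14 bases, and the gain equalled the length of the short exon in 3.

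Idh3g, a regulatory subunit of the NAD-dependent isocitrate dehydrogenase of the citric acid cycle, took nearly all of its gene reads in this form. Its model with a donor 4 bases downstream had 319 reads in replicate 2 and 345 in replicate 1, out of 348 and 381 reads of the gene. The new intron, chrX:73782104-73782670, was read 333 and 366 times, and annotated introns sharing its acceptor 1 and 2 times. The 12-base exon inside it, printed above, had 0 reads in either library, which allows up to 0.862% and 0.787% of the gene's reads. The 4 gained bases share 1 of 4 positions with the start of that exon. This match varied between models, with 1 of 4 in the leading Tnni3 model and 2 of 8 in Mrpl33. It was 3 of 4 in Lmf1 and 8 of 12 in Capn2.

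Tnni3, the inhibitory troponin subunit of heart muscle, held 5 of the models. Together they had 187 of 359 gene reads in replicate 2 and 229 of 477 in replicate 1. The leading one, again with a donor 4 bases downstream, had 125 and 148 reads, and its intron was read 128 and 152 times with 0 reads on annotated partner introns in both libraries. The spanned exon of 13 bases had 0 reads in both, a counting limit of 0.836% and 0.629% of gene reads. Again this covers reads placed on the exon, not how often it was included.

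The same form occurred in genes of other functions. Mrpl33, a protein of the mitochondrial ribosome, had 200 reads in replicate 2 and 255 in replicate 1 for a donor 8 bases downstream, 91.3% and 94.4% of its gene reads, while its 19-base exon had 3 reads in each library. Capn2, the large subunit of a calcium-activated protease, had 93 and 91 reads, 96.9% and 92.9% of the gene, and its 12-base exon had 0. Pitpna, a phosphatidylinositol transfer protein, had 77 and 100 reads, 85.6% and 87.7% of the gene, and its 8-base exon had 0. In Hnrnpk, an RNA-binding protein that takes part in splicing, the new intron was read 293 and 308 times against 0 reads of annotated partners, and the gain of 16 bases equalled the length of its 16-base exon, with 8 of 16 positions identical. Cct6a, a subunit of the chaperonin that folds actin and tubulin, had 99 and 111 reads, 81.8% and 87.4% of the gene, with both ends of the intron new across a 13-base exon with 0 reads.

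In 5 of the 47 genes the short exon was itself read 100 or more times in both libraries. Atp2a2, which pumps calcium back into the sarcoplasmic reticulum, had 492 reads of the leading model in replicate 2 and 456 in replicate 1, with a donor 4 bases downstream. The 18-base exon that its intron spans, printed above, had 7183 and 7158 reads, and the new intron was used in 7.62% and 6.85% of reads at its acceptor. Bsg, the membrane glycoprotein basigin, had 78 and 113 reads with an acceptor 28 bases upstream, and its 25-base exon had 1709 and 2144 reads.

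Short annotated internal exons were read less often than longer ones in genes with 50 or more reads in both libraries. Exons of 10 bases or fewer had a read in 0 of 39 cases in both libraries, which allows a share of up to 7.69%. Those of 11 to 15 bases had a read in 3 of 44 and those of 16 to 20 bases in 9 of 37, in each library. From 21 to 30 bases it was 149 of 220 in each library, and from 31 to 60 bases 85.7% in replicate 2 and 86.1% in replicate 1. The part of read alignment in the new introns across such exons was not tested.

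**Figure D5:**
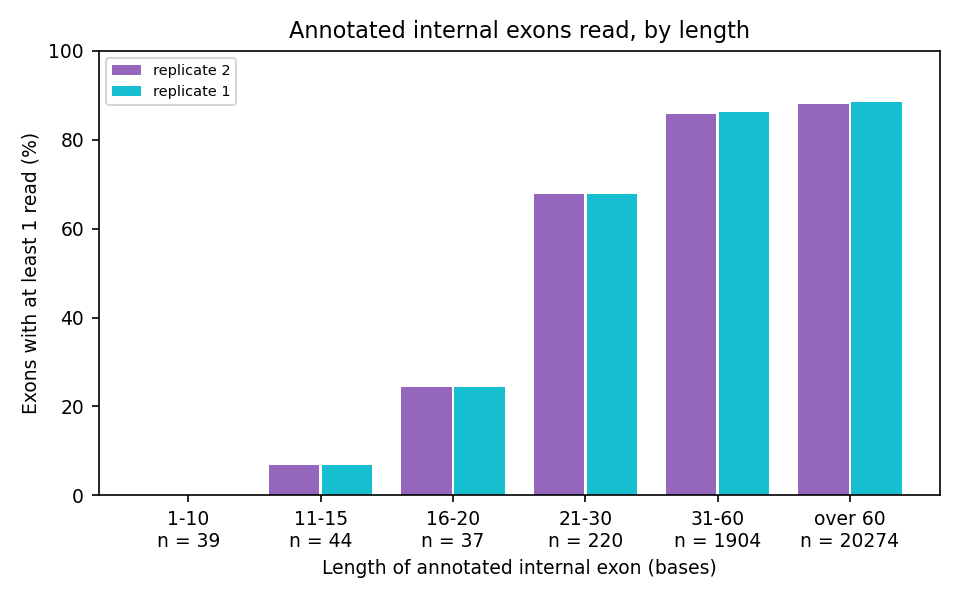
Percent of annotated internal exons with at least 1 read in replicate 2 (purple, left) and replicate 1 (blue), by exon length in bases, in genes with 50 or more reads in both libraries; n is the number of exons. The share is 0 of 39 at 10 bases or fewer, 24.3% at 16 to 20 bases and 67.7% at 21 to 30 bases in both libraries.

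Shifted acceptors outside that group included several that took a large part of the reads at their donor. Qk, an RNA-binding protein that regulates splicing, had 147 and 145 reads with an acceptor 24 bases downstream in coding sequence, and the new intron took 82.5% and 77.8% of reads at its donor. Hfe2, which encodes hemojuvelin of iron balance, had 124 and 117 reads with an acceptor 18 bases upstream and a use of 66.3% and 64.7%. Smdt1, a regulator of the mitochondrial calcium uniporter, had 65 and 129 reads at an acceptor 7 bases downstream in the 3′ UTR, with a use of 47.3% and 55.0%.

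Among the small acceptor steps, levels of use differed between genes. In Sdhb, the iron-sulfur subunit of respiratory complex II, the 6 skipped bases printed above belonged to a model with 101 reads in replicate 2 and 104 in replicate 1, and its intron was used in 8.26% and 6.49% of reads. Tpm1, the tropomyosin of heart muscle, skipped AG in 66 and 77 reads, a use of 0.996% and 0.943%. Myh6, the alpha myosin motor of heart muscle, skipped GAG in a model with 26 and 48 reads, and a step of 2 bases in another of its introns was read 320 and 363 times, 1.54% and 1.65% of reads at that donor. Lpl, the lipase that frees fatty acids for muscle, skipped GAG in 24 and 36 intron reads, 0.592% and 0.744%. Slc25a13, a mitochondrial aspartate and glutamate carrier, differed in level: the intron that skips CAG was read 70 and 68 times against 21 and 18 annotated reads, a use of 76.9% and 79.1%. Atp5j, a subunit of ATP synthase, had 77 and 122 reads at an acceptor 5 bases downstream in the 5′ UTR, a use of 7.58% and 8.85%.

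Shifted donors outside the short-exon group were led by Vdac3, a pore of the outer mitochondrial membrane. A donor 1 base downstream gave 326 reads in replicate 2 and 377 in replicate 1, 87.9% and 89.3% of the gene, and the intron was read 334 and 388 times against 21 annotated reads in each library. Mknk2, a kinase of the translation factor eIF4E, had 167 and 178 reads with a donor 42 bases upstream in the 5′ UTR, and a use of 76.4% and 75.0%. Dctn2, the dynamitin subunit of dynactin, had 59 and 87 reads with a donor 10 bases downstream and a use of 67.7% and 66.2%.

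New internal exons lay between annotated exons. The 47 distinct ones were 21 to 851 bases long with a median of 81 bases, and 21 of 47 had a length that is a multiple of 3. Abcd3, a transporter of the peroxisome membrane, led with 79 reads in replicate 2 and 86 in replicate 1 for a 70-base exon at chr3:121787980-121788049, and its flanking introns were used in 85.3% and 87.3% (downstream) and 88.1% and 93.1% (upstream) of reads. Tmem65, a membrane protein of the intercalated disc, had 63 and 65 reads for an 81-base exon, 22.7% and 22.8% of its gene. Kcng2, a potassium channel subunit, had 73 and 82 reads, 24.7% and 31.1% of the gene. Ywhae, a 14-3-3 signalling adaptor, had 19 and 42 reads, with a use of 8.30% and 12.9% on both sides. The next in read number were Fermt2, an integrin-binding kindlin, with 17 and 24 reads, Slk, a kinase, with 7 and 17, Idh3b, another subunit of isocitrate dehydrogenase, with 9 and 16, and Phkb, a subunit of phosphorylase kinase, with 7 and 15.

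New first exons began inside an intron of the gene in 67 of 84 models and upstream of the gene in 17, and 6 began in a RefSeq promoter window (GRCm38). The share for annotated first exons is not given. The class means that the first exon of the model overlaps no annotated exon of the gene. A model cut short within a new internal exon would also be placed here. Whether these starts are the true 5′ ends was not tested. The most read was in Myh6, where a 224-base exon at chr14:54967868-54968091 began 1164 bases upstream of the annotated start. It had 125 reads in replicate 2 and 136 in replicate 1, and its intron was used in 1.31% and 1.26% of reads at the acceptor. Sbk1, a kinase gene, had 106 and 75 reads of a model that began 24381 bases upstream, 81.5% and 68.2% of its gene reads. Nexn, an actin-binding protein of the Z-disc, had 44 and 61 reads, and the intron of its new first exon was used in 45.5% and 45.7% of reads at its acceptor.

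Introns inside annotated exons lay wholly in a 3′ UTR in 19 of 29 models and wholly in coding sequence in 5. The most read were in the 3′ UTRs of Lpl, with 67 reads in replicate 2 and 76 in replicate 1, Acad12, an acyl-CoA dehydrogenase, with 42 and 56, and Fitm2, a lipid droplet protein, with 37 and 37. The ends of the Lpl intron read CT and GC, the only CT donor and the only GC acceptor among the readable new sites. Of the 5 coding ones, Taf4, a subunit of the general transcription factor TFIID, is printed below to show that some of the same letters can stand at both ends of an intron. Capitals mark the first and last 2 bases of the intron, in 24-base windows at chr2:179976358-179976381 and chr2:179976283-179976306 (minus strand).
Taf4 donor side: cgccccccgcagGTagagcgcggc
Taf4 acceptor side: ttgtccccgcAGggcccgcgccgg

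In Zfp970, a zinc finger gene, an 84-base intron had 19 identical bases across its ends, with 25 intron reads in replicate 2 and 17 in replicate 1. The Taf4 intron had 9 identical bases, with 8 and 5 reads. With such repeats the place of the ends cannot be set from the letters alone, and Zfp970 belongs to a multigene family, so its reads are uncertain. Among 111 new introns that could be read at both ends, 4 had 8 or more identical bases, and the median was 2.

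Most models took a small part of their gene's reads. The median model took 6.61% of its gene's reads in replicate 2 and 4.52% in replicate 1. Of 607 models in genes with 20 or more reads in both libraries, 30 took 50% or more of the gene's reads in both. Nrgn, a calmodulin-binding protein, had all of its reads in 1 model, 15 in replicate 2 and 21 in replicate 1, with an acceptor 17 bases upstream across a short exon. Hacd1, an enzyme of very long chain fatty acid synthesis, took 81.3% and 89.5% of 64 and 76 gene reads.

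In 32 genes 3 or more of the models occurred. Atp2a2 held 12 of them, with 702 reads in replicate 2 and 661 in replicate 1, or 8.07% and 7.64% of its gene reads. Myh6 held 10, with 254 and 272 reads, 1.03% and 1.04% of its reads. Uckl1, a uridine kinase, held 3 with 70.2% and 75.0% of its gene reads. At the read minimum, models with 4 reads in the most read genes recurred unevenly: 2 in Myh6 had 1 and 0 reads in replicate 1, and 2 in Tpm1 had 4 and 1.

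Models were found more often in deeply read genes. The choice asks for 4 reads whatever the depth of the gene, so a deeper gene can meet it with a smaller share. The rise with depth and the small shares in deep genes are therefore partly set by the choice. Of 5316 genes with 20 or more reads in replicate 1, 8.86% held a model, and the share was 5.43% at 20 to 99 reads, 14.0% at 100 to 499 and 41.0% at 500 or more. Among genes of glycolysis, the citric acid cycle and the energy buffer, 18 of 26 held one, with a median of 1328 gene reads, including Aldoa, Pkm and Idh3a. Nuclear genes of oxidative phosphorylation did so in 16 of 30, with a median of 1417 gene reads, and sarcomere and Z-disc genes in 13 of 32, with a median of 391. Fatty acid genes held one in 8 of 25, calcium handling genes in 4 of 18, and genes known to change splicing in heart development in 6 of 24. Splicing factors did so in 3 of 30, with a median of 56.5 reads. Ribosomal protein genes held one in 5 of 77, with a median of 159 reads. In the deeply read lists the median share of gene reads was small, at 0.391% in replicate 2 and 0.286% in replicate 1 for glycolysis and the citric acid cycle and 0.190% and 0.111% for oxidative phosphorylation, against 6.61% and 4.52% over all 694. The part of depth in these differences between lists was not tested.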

How the data were processed

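Long reads were counted per transcript model in 2 heart libraries. The counts deposited by the authors are whole, not normalized, and 1 library each. Per the submitters' files, they rest on alignments to mm10, GENCODE M21 and models added by TALON, and the authors also deposited exon numbers, lengths and model coordinates. Aligner, versions and filters are not given in the sources used here. All 141862 M21 transcripts were identical in both annotation files.

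The models and gene lists were chosen with earlier results of these data known. Introns were taken from each library's annotation, and a model was found in replicate 1 if a chain with the same chromosome, strand and introns had 1 read or more. A site was new if no M21 transcript held it. Distances were taken to the nearest known site of the gene, positive downstream. Use, shares of gene reads and Wilson intervals (scipy 1.17.1) followed, after a check on made-up gene structures with known answers. With 1 group, no test was run. Named models were the 20 with most replicate 1 reads, the 8 with most reads not found there, the 8 with the largest gene share, genes with 3 or more models, the 8 leading new internal exons, up to 4 at the minimum, and list genes; others were chosen after their values were seen. No genome was used. A few models named by this rule are left out of the text.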

Additional observations from a re-analysis of the deposited data

How the results depend on the processing

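No paired analysis was possible because the labels gave 1 group. The read minimum moved 9 of 18 values at 10 reads and 4 to 6 of 18 at the others. At 2, 3 and 10 reads there were 2151, 1073 and 201 models. Those found in replicate 1 were 69.0%, 87.4%, 97.4% and 100% at 2, 3, 5 and 10 reads, and new introns read there were 76.2%, 91.6%, 98.8% and 100%. The median share of gene reads was 2.43%, 8.31% and 15.2% at 2, 5 and 10 reads, and median use 2.21%, 3.67%, 8.26% and 26.4% at 2, 3, 5 and 10. Models across a short exon were 4.83% at 2 and 18.4% at 10 reads. At 10 reads the median distance of new sites was 27.0 bases, against 63.0, and new internal and last exons made up 3.48% and 0.0%. Choosing in replicate 1 instead gave 795 models, with 92.8% of models and 94.9% of introns found in replicate 2. Matching within 5 bases, or by the new introns alone, gave 97.3% each, a minimum of 4 reads in replicate 1 gave 69.2%, and NNC models alone gave 95.7% of introns. Without models across a short exon the median distance was 123 bases. This alternative, those of share, use and short-exon models by read minimum, and those of introns and short-exon models when choosing in replicate 1 were chosen after seeing the data, as was the share of short-exon models among those found in replicate 1. Leaving out 1 replicate gave median shares of 4.52% to 6.61% and median use of 4.17% to 6.59%. The other alternatives stayed within the main interval, or for the number of models within 1.5 times. The main interval was a Wilson interval for shares of models, introns or sites, and was taken from ranks for the median distance. For median gene share and median use it was the value plus or minus the standard deviation of the 2 library medians. The causes were not tested. Depth limits models with few reads, and letters of most intron sites could not be read.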
